A study of Rattus norvegicus with 6 samples.

Results

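Among the genes measured in rat kidney transplants were 8 enzymes that move nitrogen between amino acids, and all 8 had lower levels in tolerated allogeneic grafts than in syngeneic grafts. They were Ass1, Asl, Arg2, Gatm, Glul, Glud1, Abat and Aadat. They are genes of this pathway with a named probe in the platform annotation, and they were selected on their log2 levels on these same 6 arrays, tolerated against syngeneic. Their group differences are therefore given as a description, and no test of them is read as support. Each had 1 probe, so 8 of the 26857 probes on the array were used, and all 8 were among the 20142 probes and 4955 named genes tested.

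The samples were 6 kidney transplants removed on day 100 after transplantation, 1 array each. Tolerated grafts (3 arrays) were kidneys of LEW.1W rats (MHC haplotype RT1u) in LEW.1A recipients (RT1a) treated with antibodies against donor class II molecules. The donor kidneys were 8 to 12 weeks old, and in these recipients the own kidneys were removed on day 7. Syngeneic grafts (3 arrays) were LEW.1A kidneys in LEW.1A recipients. The strains are MHC-congenic lines of the Lewis rat, and LEW.1A was the recipient in both groups. Donor haplotype, MHC mismatch and antibody differed together, so their effects cannot be told apart. Whether the own kidneys of the syngeneic recipients were removed is not given here. If the groups differed in this, its effect cannot be told apart either. RNA came from whole sections, and in such bulk samples fewer cells of a type and less RNA per cell cannot be told apart. Whether the arrays of a group were made from different animals is not said in the labels, so the p-values cover the variation among these arrays, which may be technical.

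The kidney takes part in the nitrogen balance of the whole body. Proximal tubule cells turn citrulline from the gut into arginine and make guanidinoacetate, which the liver methylates to creatine. They also take up glutamine and release its nitrogen as ammonia, which buffers acid in the urine. The liver, by contrast, runs the complete urea cycle. Many of the enzymes below are therefore known from both organs.

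Uromodulin (Umod), the marker of the thick ascending limb, stood at 20.10, 20.67 and 20.41 in tolerated and 20.84, 20.84 and 20.69 in syngeneic grafts, as log2 intensity after quantile normalization. The tissue was thus kidney in both groups by this marker. On the first principal component the tolerated arrays had scores of 72.4 to 96.2, syngeneic replicate 3 had -32.5, and the other syngeneic arrays had -107.1 and -104.4. Between the groups 25.2% of tested probes (5075) passed limma's test at a Benjamini-Hochberg adjusted p under 0.05. Leaving out an array lowered this to 2152 (tolerated replicate 1), 2030 (tolerated replicate 2), 1927 (tolerated replicate 3), 2132 (syngeneic replicate 1) or 1610 (syngeneic replicate 2), while 6046 passed when syngeneic replicate 3 was left out.

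RefSeq promoter sequences (assembly GRCr8, from 250 bases before the gene start to 50 after it) were in hand for 6 of the 8 genes. Of these, 4 windows are shown because they belong to genes of different steps, namely arginine synthesis, creatine synthesis, glutamine synthesis and the transamination of kynurenine, that were lower together. For Glul the table held 2 starts, and the window with more matches is shown. Capitals mark matches to the motifs searched on both strands.
Ass1, chr3:35149480-35149779, plus strand: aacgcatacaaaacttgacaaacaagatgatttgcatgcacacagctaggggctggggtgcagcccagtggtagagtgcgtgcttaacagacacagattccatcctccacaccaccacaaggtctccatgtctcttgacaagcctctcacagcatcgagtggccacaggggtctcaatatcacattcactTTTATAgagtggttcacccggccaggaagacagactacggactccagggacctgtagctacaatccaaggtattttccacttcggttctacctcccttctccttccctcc
Gatm, chr3:130129044-130129343, minus strand: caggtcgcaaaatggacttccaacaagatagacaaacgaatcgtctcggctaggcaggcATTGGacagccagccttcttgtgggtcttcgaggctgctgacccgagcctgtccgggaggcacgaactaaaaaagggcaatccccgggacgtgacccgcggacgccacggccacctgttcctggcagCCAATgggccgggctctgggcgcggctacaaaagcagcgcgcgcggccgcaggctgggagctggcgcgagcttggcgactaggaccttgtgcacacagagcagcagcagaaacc
Glul, chr13:68575816-68576115, plus strand: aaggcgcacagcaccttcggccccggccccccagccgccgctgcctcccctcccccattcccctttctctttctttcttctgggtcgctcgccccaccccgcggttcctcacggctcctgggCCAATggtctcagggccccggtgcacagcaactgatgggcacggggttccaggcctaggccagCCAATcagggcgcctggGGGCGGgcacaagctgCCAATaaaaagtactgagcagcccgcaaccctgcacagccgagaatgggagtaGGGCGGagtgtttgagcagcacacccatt
Aadat, chr16:34555131-34555430, minus strand: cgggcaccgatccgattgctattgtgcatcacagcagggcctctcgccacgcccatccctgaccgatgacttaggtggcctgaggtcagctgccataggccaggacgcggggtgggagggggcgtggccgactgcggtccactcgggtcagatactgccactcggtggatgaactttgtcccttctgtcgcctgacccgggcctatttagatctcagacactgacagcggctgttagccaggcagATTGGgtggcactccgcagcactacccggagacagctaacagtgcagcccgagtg

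The motifs were CCAAT (the CCAAT box), TATAAA (the TATA box), GGGCGG (the GC box), GTTAAT (an element of hepatocyte nuclear factor 1), CAAAGTCCA (a hepatocyte nuclear factor 4 site), TGACGTCA (the cyclic AMP response element) and TGTTCT (an element of the glucocorticoid receptor). No letter was shared by matches of different motifs in the windows shown. CCAAT was in 4 of the 7 windows of these genes, those of Gatm, Aadat and both of Glul, against 37.5% of all 33469 promoters of that length. GGGCGG was in 4, those of Asl, Glud1 and both of Glul, against 33.1%. TATAAA was in 1, that of Ass1 on the opposite strand, against 14.2%. GTTAAT, CAAAGTCCA, TGACGTCA and TGTTCT were in none of the 7, against 7.45%, 0.391%, 1.83% and 20.7% of all promoters. The median G+C content was 62.3% over the 7 windows and 51.7% over all promoters. The 4 printed windows thus share no single motif among those searched, and a match marks letters only.

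The arginine-making pair came first in the order of roles. Ass1, argininosuccinate synthase, joins citrulline to aspartate. Its log2 level was 14.62, 14.02 and 14.09 in tolerated replicates 1 to 3, against 16.80, 17.18 and 16.26 in syngeneic replicates 1 to 3. The groups were 1.64 log2 units apart at their nearest values. The difference was -2.50 ± 0.30 (log2, standard error of the fit), a level 5.66-fold lower in tolerated grafts. Asl, argininosuccinate lyase, releases arginine and fumarate from the product. It stood at 13.93, 13.85 and 13.66 in tolerated and at 15.90, 15.81 and 14.90 in syngeneic grafts. Asl had the smallest difference of the 8 genes, -1.72 ± 0.30, or 3.30-fold, and the narrowest gap between groups, 0.97, set by syngeneic replicate 3.

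The enzymes that use arginine were lower as well. Arg2, the mitochondrial arginase, splits arginine into ornithine and urea. Its log2 level was 11.65, 11.96 and 11.84 in tolerated grafts, against 14.10, 13.91 and 13.71 in syngeneic grafts. The SD was 0.15 in tolerated and 0.20 in syngeneic grafts (n = 3 each), and no syngeneic SD was smaller among the other 7 genes, and the difference was -2.09 ± 0.18, or 4.26-fold. Gatm, glycine amidinotransferase, moves the amidino group of arginine to glycine in the first step of creatine synthesis. It stood at 15.04, 14.17 and 14.11 in tolerated and at 16.38, 18.23 and 17.12 in syngeneic grafts. Gatm had the widest spread of the set among syngeneic arrays, 1.85 log2 units, with syngeneic replicate 1 lowest. Its difference of -2.80 ± 0.53 (6.98-fold) became -2.28 without syngeneic replicate 2 and -3.19 without syngeneic replicate 1.

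The enzymes of ammonia and glutamate differed by similar amounts. Glul, glutamine synthetase, fixes ammonia onto glutamate, and in the rat kidney it is known from the straight part of the proximal tubule. Its log2 level was 14.88, 14.68 and 14.73 in tolerated grafts, against 16.90, 17.22 and 16.43 in syngeneic grafts. The tolerated values lay within 0.20 log2 units of each other, and the difference was -2.09 ± 0.24, or 4.26-fold. Glud1, glutamate dehydrogenase, frees ammonia from glutamate in mitochondria. It stood at 12.22, 11.78 and 11.81 in tolerated and at 14.38, 13.98 and 13.57 in syngeneic grafts, a difference of -2.04 ± 0.26 (4.12-fold). Glul, which binds ammonia to glutamate, and Glud1, which frees it from glutamate in a separate reaction, were thus both lower, with differences 0.05 apart.

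The transaminases had the largest differences. Abat, GABA transaminase, breaks down gamma-aminobutyrate and beta-alanine. Its log2 level was 9.87, 9.82 and 10.65 in tolerated grafts, against 13.83, 13.81 and 13.34 in syngeneic grafts. This was the largest difference of the 8 genes, -3.54 ± 0.29 (11.7-fold), and the widest gap, 2.69, and tolerated replicate 3 was the highest of its group. Aadat, aminoadipate aminotransferase, acts on the lysine product aminoadipate and on kynurenine, a product of tryptophan. It stood at 16.45, 15.98 and 17.73 in tolerated and at 19.27, 19.76 and 20.23 in syngeneic grafts. Aadat had the widest spread among tolerated arrays, 1.75 log2 units, again with replicate 3 highest. Its difference was -3.03 ± 0.51 (8.19-fold), and it became -3.56 without tolerated replicate 3.

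**Figure D1:**
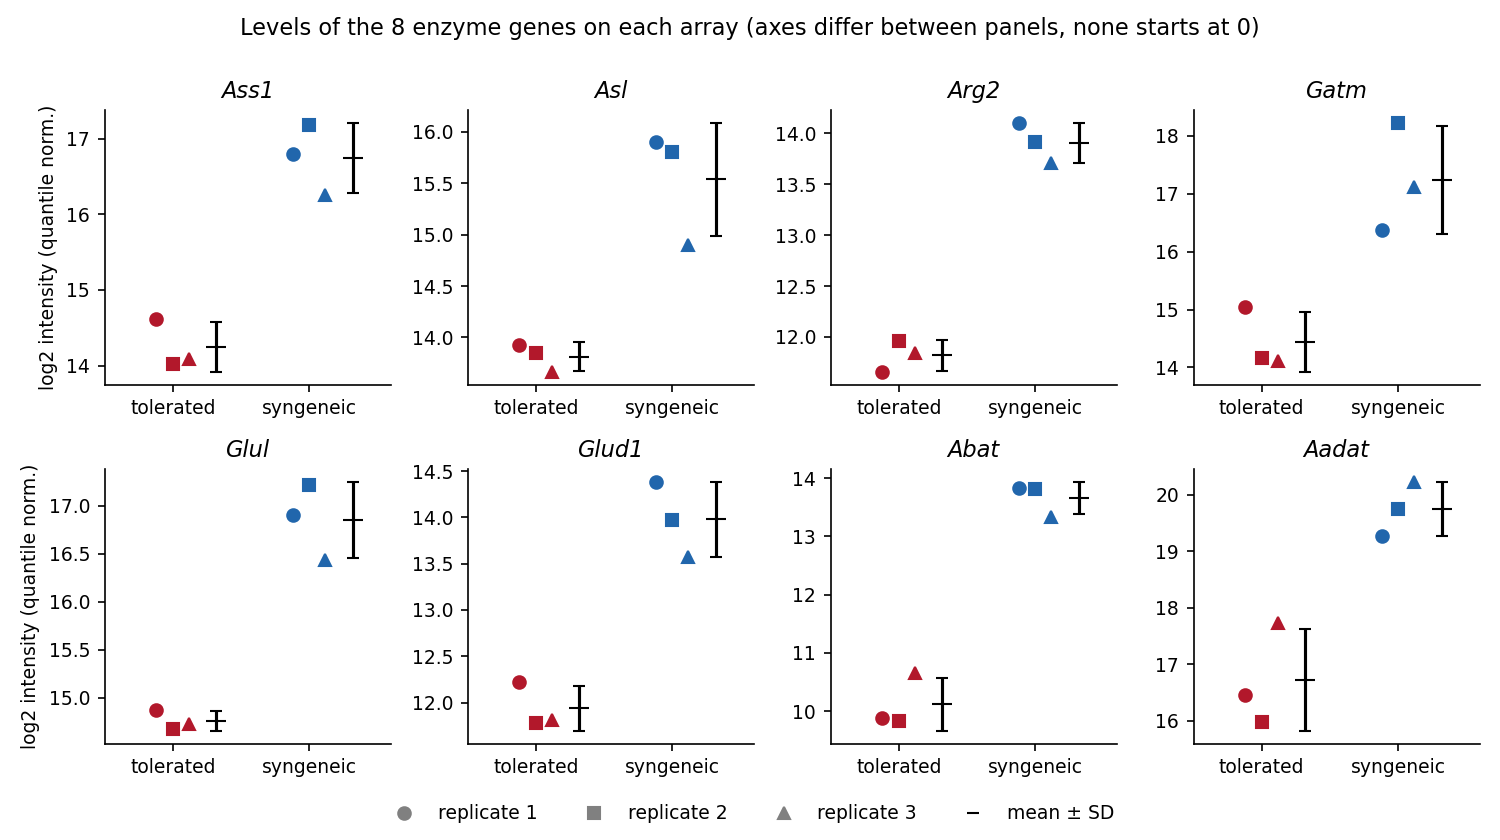
Log2 intensity after quantile normalization (y axis, scaled for each panel) of the 8 enzyme genes on each of the 3 tolerated and 3 syngeneic arrays. Symbols are replicates, and bars are the group mean with its SD. In every panel the 3 tolerated values lie below the 3 syngeneic values, by 0.97 (Asl) to 2.69 (Abat) at the nearest points.

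The same order appeared in the ranks of the probes within each array, which do not depend on the normalization between arrays. Abat lay at percentile 54.58, 54.16 and 61.41 of all probes on the tolerated arrays and at 86.49, 86.30 and 83.03 on the syngeneic arrays. Arg2 lay at 69.75, 72.19 and 71.28 on tolerated and at 88.19, 87.05 and 85.65 on syngeneic arrays. Aadat lay at 97.27, 96.21 and 98.88 on tolerated and at 99.71, 99.84 and 99.91 on syngeneic arrays. A probe near the top of the scale, such as that of Aadat, thus differed much in intensity and little in rank. In the intensities as deposited, before any scaling, Abat had 1100, 1010 and 2469 in tolerated and 9773, 11992 and 12012 in syngeneic grafts. Levels of different probes are not compared here, since their binding strengths differ.

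The median difference of the 8 genes was -2.30 on the log2 scale, against -0.02 for all tested probes. All 8 were past limma's threshold in the direction of lower, against 12.8% of tested probes, and all 8 had groups that did not overlap, lower in tolerated, against 24.1% of tested probes (47.3% in either direction). Since the members were proposed on this comparison, nothing is read from these shares. The same holds for whether a member passes or misses the threshold in any other fit. Of all tested probes 0.933% had a more negative difference than Abat, and 5.06% had a more negative difference than Asl. With 1 array left out, Asl and Gatm missed the threshold without tolerated replicate 2 or 3, Asl and Aadat without syngeneic replicate 2, and Aadat without tolerated replicate 1. The median stayed between -2.52 and -2.16 in these 6 fits.

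**Figure D2:**
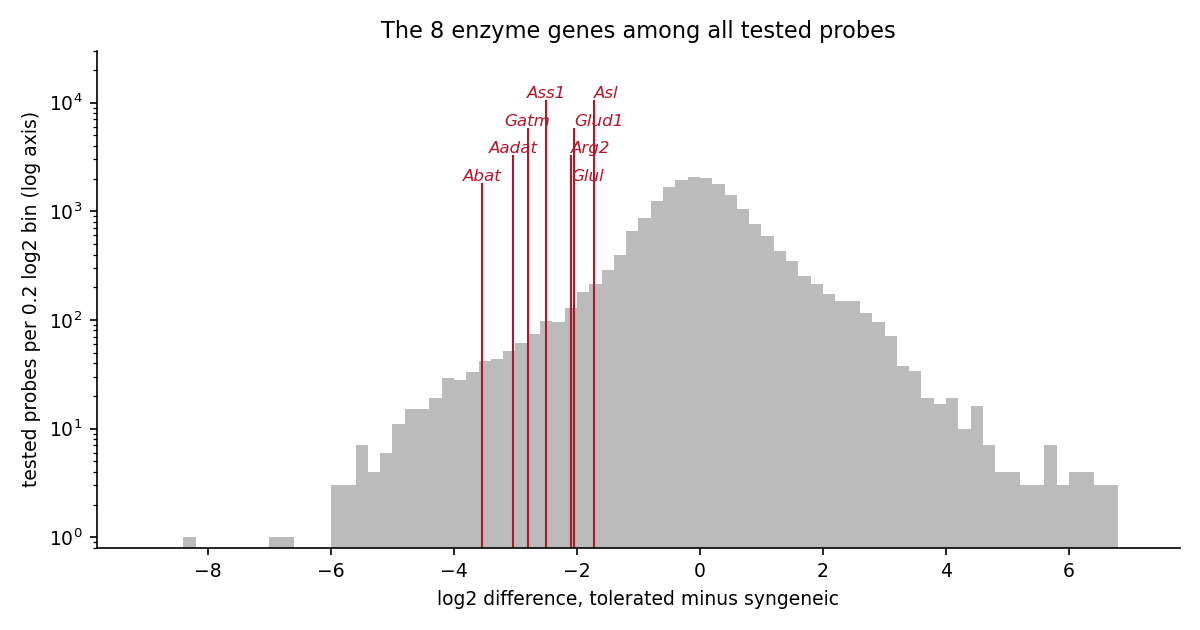
Histogram of the log2 difference, tolerated minus syngeneic, of all 20142 tested probes (x axis) with the number of probes per bin on a log axis. Vertical lines mark the 8 enzyme genes, which lie between -3.54 (Abat) and -1.72 (Asl), in the lower tail of a distribution with a median of -0.02.

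Within the syngeneic group the members did not all follow the same order. Syngeneic replicate 3 was the lowest of its group for 6 of the 8 genes, the exceptions being Gatm and Aadat, for which replicate 1 was lowest. Replicate 3 was also lowest for 74.6% of the 2585 probes that were lower in tolerated grafts past the threshold. On that array the summed intensity of macrophage and dendritic cell markers was 890733, against 242758 and 269203 in syngeneic replicates 1 and 2. That of T cell markers was 20852 in replicate 3, against 6380 and 12586, and that of proximal tubule markers was 4940299, against 7457558 and 7223183. Replicate 3 thus had the most of both immune marker sums and the least of the proximal tubule sum within its group, and the part of this in the order of the enzyme genes was not tested. The mean level of the 8 genes relative to all 6 arrays was -1.14, -1.44 and -1.14 in tolerated replicates 1 to 3, and 1.23, 1.52 and 0.98 in syngeneic replicates 1 to 3. Without syngeneic replicate 3 the differences were -3.68 for Abat, -2.86 for Gatm, -2.81 for Aadat, -2.75 for Ass1, -2.30 for Glul, -2.24 for Glud1, -2.18 for Arg2 and -2.04 for Asl. The differences of Gatm, Abat, Ass1, Glul, Glud1, Arg2 and Asl were larger without that array, and that of Aadat was smaller.

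Markers of cell types moved with these genes. Of 19 proximal tubule markers tested 17 fell (limma, background 12.8%), and their median difference was -2.58. Among them, the phosphate carrier gene Slc34a1 stood at 17.82, 17.81 and 18.44 in tolerated and 20.67, 20.56 and 20.56 in syngeneic grafts. The summed intensity of the 19 markers was 482877 to 725375 in tolerated and 4940299 to 7457558 in syngeneic grafts. All 8 enzyme genes had differences within the range of these markers, which ran from -5.42 to -1.50. Markers of the thick ascending limb and distal tubule (2 of 11 fell, 1 rose, median -0.37) and of the collecting duct (2 of 11 fell, median -0.41) had smaller medians. Those that fell were Klk1 (-3.51) and Egf (-3.32) in the first list, within the range of the enzyme genes, and Slc26a4 (-1.64) and Rhbg (-1.39) in the second. The summed intensity in tolerated and syngeneic grafts was 1717123 to 2523579 and 3126915 to 3306697 for the first list. For the second it was 117418 to 227496 and 219488 to 267743, which overlapped. All 11 macrophage and dendritic cell markers rose, against 12.4% of tested probes, with a median of 3.04 and a summed intensity of 2784317 to 3057273 in tolerated and 242758 to 890733 in syngeneic grafts. Of 9 T cell markers 6 rose, with a median of 2.32 and a summed intensity of 39185 to 57805 in tolerated and 6380 to 20852 in syngeneic grafts. No marker was at 0 on any array. The part of these shifts in the levels of the enzyme genes was not tested.

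Set against the mean of the proximal tubule markers on the same array, the enzyme genes no longer differed all in the same direction. That mean differed by -3.07 between the groups, and 7 of the 8 enzyme genes had a difference closer to 0. Relative to it, Asl was higher in tolerated grafts by 1.34, Glud1 by 1.03, Arg2 and Glul by 0.98 each, Ass1 by 0.56, Gatm by 0.26 and Aadat by 0.03, while Abat differed by -0.48. The groups overlapped on this scale for Gatm and Aadat. At their nearest values they were only 0.007 apart for Abat and 0.04 apart for Ass1. The median difference of the markers, -2.58, was closer to 0 than their mean, and Abat, Aadat and Gatm had more negative differences than that median. The reading depends on the markers averaged, and it is a description of these arrays.

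**Figure D3:**
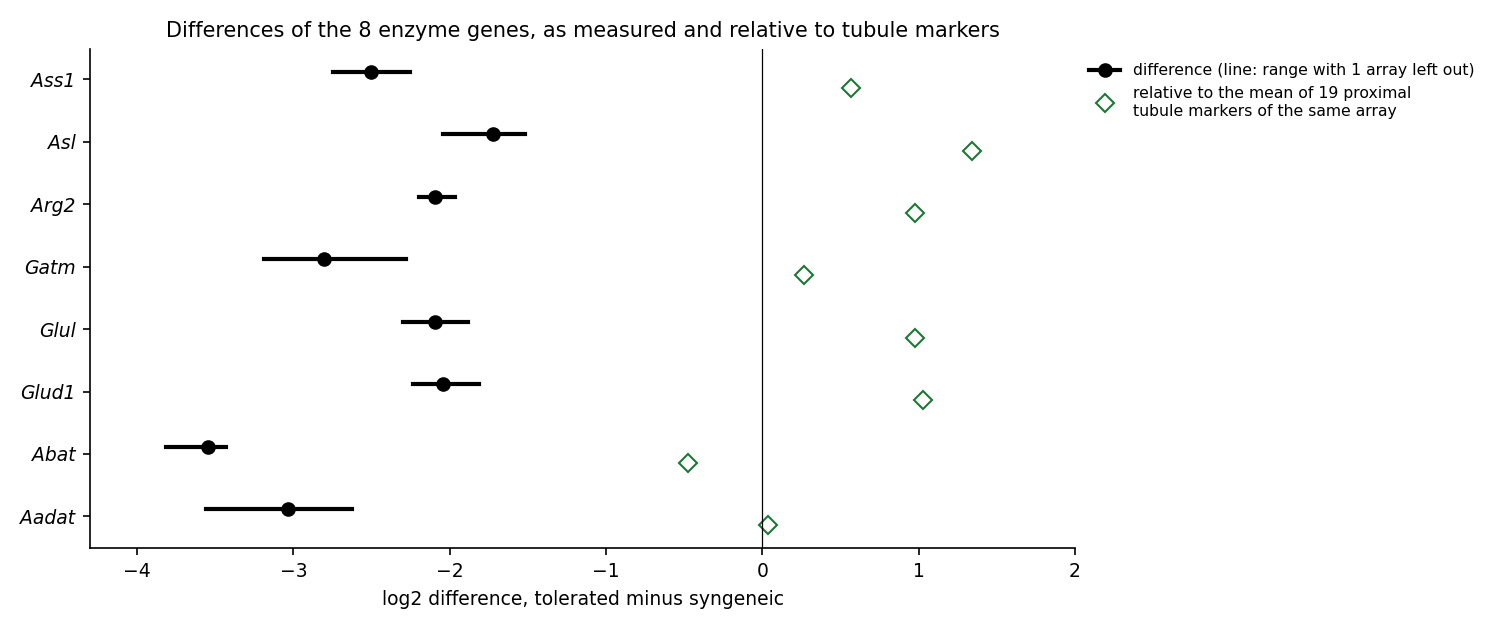
Log2 difference, tolerated minus syngeneic, of each enzyme gene (filled points, with the range over fits without 1 array as a line) and the same difference relative to the mean of 19 proximal tubule markers on each array (open diamonds). The first lie between -3.54 and -1.72, and the second between -0.48 (Abat) and 1.34 (Asl).

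Liver transcripts were examined because most of these enzymes are also abundant in liver. Alb, which encodes albumin, had a log2 level of 7.70, 6.55 and 6.83 in tolerated grafts and 17.66, 13.32 and 14.79 in syngeneic grafts. Its difference of -8.23 was the largest of the liver list, which had a median of -2.07. The tolerated mean of Alb, 7.03, lay under the filter threshold of 7.76, so the size of its difference rests on a dim level. Of 20 transcripts known from liver, 8 fell (limma, background 12.8%) and 12 did not pass, Cps1 and Arg1 among the 12. The summed intensity of the 20 was 53120 to 73936 in tolerated and 276891 to 715809 in syngeneic grafts. Syngeneic replicate 1 was the highest of its group for 17 of the 20 liver transcripts and for 4 of the 8 enzyme genes, against 44.4% of the 2585 probes that were lower in tolerated grafts past the threshold. These probes all passed, unlike 12 of the 20 liver transcripts, so the sets are not alike, and the share over all tested probes was not computed. Without that array the enzyme genes had differences of -1.52 (Asl) to -3.43 (Abat), with a median of -2.23. The urea cycle gene Cps1, whose product carbamoyl phosphate synthetase opens the cycle in liver, stood at 8.70, 7.23 and 7.79 in tolerated and 9.31, 7.60 and 8.86 in syngeneic grafts. Otc, ornithine transcarbamylase, stood at 7.21, 7.19 and 7.11 in tolerated and 8.52, 8.06 and 5.70 in syngeneic grafts and did not pass the filter on dim probes. The groups overlapped for both genes.

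**Figure D4:**
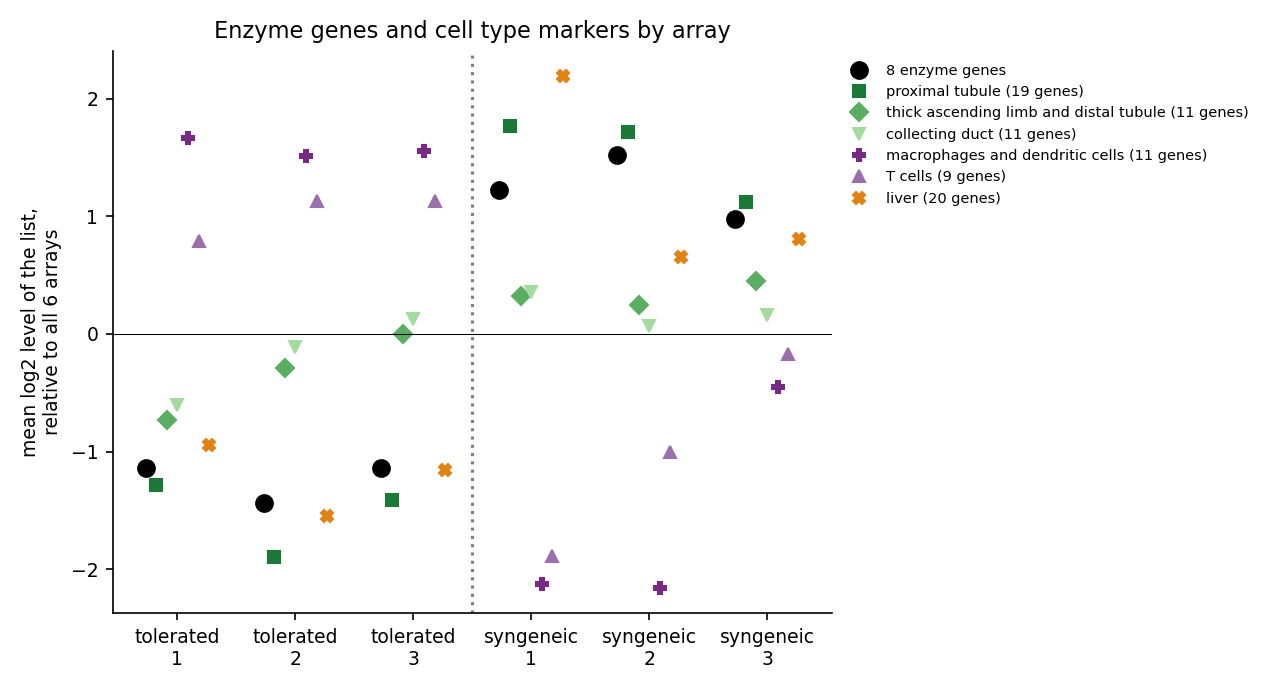
Mean log2 level relative to all 6 arrays (y axis) of the 8 enzyme genes and of 6 marker lists on each array (x axis). The enzyme genes lie at -1.44 to -1.14 in tolerated and 0.98 to 1.52 in syngeneic grafts, beside the proximal tubule markers. The liver list lies on the same side, at -1.55 to -0.94 and 0.66 to 2.19, while macrophage markers lie on the opposite side of 0 in each group.

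The rest of the pathway was read from 7 lists of other enzymes and carriers of amino acid nitrogen metabolism. Of 85 such genes tested, 60 fell and 2 rose (limma), or 70.6% and 2.35%, against 12.8% and 12.4% of all tested probes. That background counts probes with and without a gene name, and the share among named genes alone was not computed. Their median difference was -1.70. With 1 array left out 48 to 60 fell.

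Around arginine, 2 of 6 genes fell and 1 rose, with a median of -0.97. Oat, ornithine aminotransferase, which takes up the ornithine that arginase makes, stood at 12.97, 12.80 and 12.80 in tolerated and 15.45, 15.45 and 15.43 in syngeneic grafts. It fell by 2.59 ± 0.14 on the log2 scale (limma, adjusted p = 0.00363). Ddah1, which clears the nitric oxide synthase inhibitor dimethylarginine, fell by 2.27 ± 0.28 (adjusted p = 0.00658). Nos2, the inducible nitric oxide synthase, which uses arginine in activated macrophages, stood at 11.99, 11.71 and 12.17 in tolerated and 7.39, 7.82 and 9.71 in syngeneic grafts. It rose 12.5-fold (log2 difference 3.65 ± 0.61, adjusted p = 0.0135), against the direction of the other called genes of its list, and macrophage markers rose in the same grafts. It missed the threshold without tolerated replicate 3 (adjusted p = 0.0505) or syngeneic replicate 2 (0.0556), and its difference was 4.33 without syngeneic replicate 3. Arg1, the cytosolic arginase of liver and of some macrophages, had 8.65, 7.15 and 7.26 in tolerated and 8.92, 9.23 and 8.68 in syngeneic grafts and did not pass (-1.26 ± 0.44, adjusted p = 0.088). It passed without tolerated replicate 1 (-1.70, adjusted p = 0.0252), and its tolerated mean lay under the filter threshold of 7.76. Cps1 had -0.68 ± 0.57 and did not pass.

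Next to Gatm in creatine synthesis stands Gamt, which methylates guanidinoacetate to creatine. Gamt stood at 13.24, 13.20 and 13.46 in tolerated and 16.60, 16.01 and 15.60 in syngeneic grafts and fell 6.83-fold (log2 difference -2.77 ± 0.28, adjusted p = 0.0049). The creatine carrier gene Slc6a8 fell by 1.16 ± 0.22 (adjusted p = 0.0184) and Odc1, ornithine decarboxylase, which opens polyamine synthesis, by 1.07 ± 0.21 (adjusted p = 0.0192). These were the 3 of 10 creatine and polyamine genes that fell, none rose, and the list median was -0.15. With an array left out the count dropped to 1 (tolerated replicate 2, tolerated replicate 3 or syngeneic replicate 2) or 2 (tolerated replicate 1). Slc6a8 missed the threshold without tolerated replicate 2 or 3 or syngeneic replicate 2, and Odc1 without any 1 of the tolerated replicates or syngeneic replicate 2. With the replicate number as a block Slc6a8 missed it as well.

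Beside Glul, Glud1 and Abat, 5 of 11 genes of glutamine, glutamate, GABA, aspartate and proline fell and none rose, with a median of -0.79. Slc38a3, the carrier that brings glutamine into proximal tubule cells for ammonia production, stood at 12.71, 12.71 and 13.28 in tolerated and 15.82, 15.65 and 16.15 in syngeneic grafts. It fell 7.85-fold (-2.97 ± 0.24, adjusted p = 0.00363). Aspa, which splits acetylaspartate, fell 13.5-fold (adjusted p = 0.00363) and Asrgl1, an asparaginase, 5.29-fold (adjusted p = 0.00363). The glutaminase gene Gls2 fell by 0.79 ± 0.22 (adjusted p = 0.0481) and Got1, the cytosolic aspartate aminotransferase, by 1.33 ± 0.34 (adjusted p = 0.0374). Gls2 missed the threshold with any 1 array left out, with median scaling and with no filter. Got1 passed only without syngeneic replicate 3 among the fits with 1 array left out and missed the threshold with no filter. Both missed it in limma with the replicate number as a block (adjusted p = 0.112 for Gls2 and 0.0916 for Got1). The count of the list was 3 in each fit with 1 array left out, other than the fit lacking syngeneic replicate 3, where it was 5. Got2, the mitochondrial partner of Got1, had -0.42 ± 0.40 and did not pass, but it passed without syngeneic replicate 3 (-0.86, adjusted p = 0.0252).

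Genes of branched-chain amino acid breakdown mostly fell, 9 of 12, with a median of -1.04, and 1 rose. Aldh6a1, which acts in valine breakdown, stood at 12.52, 11.97 and 12.09 in tolerated and 15.33, 15.48 and 15.20 in syngeneic grafts and fell 8.83-fold (adjusted p = 0.00363). The leucine pathway genes Mccc1 and Ivd fell by 2.03 ± 0.21 (adjusted p = 0.00496) and 1.73 ± 0.25 (adjusted p = 0.00931). Bcat1, the cytosolic transaminase that takes the first step, rose, at 15.19, 15.05 and 14.85 in tolerated against 9.998, 9.891 and 12.788 in syngeneic grafts (log2 difference 4.14 ± 0.80, adjusted p = 0.0186). It passed only without syngeneic replicate 3 among the fits with 1 array left out, where its difference was 5.06. With the replicate number as a block Bcat1 missed the threshold (limma, adjusted p = 0.0523). The difference was 3.65 when syngeneic replicate 1 was left out and 3.60 when syngeneic replicate 2 was. Only 5 genes of the list fell when tolerated replicate 1, tolerated replicate 3, syngeneic replicate 1 or syngeneic replicate 2 was left out.

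In the list of tryptophan, lysine, tyrosine and histidine genes, 11 of 15 fell and none rose, with a median of -3.19. Kynu, kynureninase, which competes with Aadat for kynurenine, stood at 11.11, 10.92 and 11.20 in tolerated and 14.87, 14.76 and 14.21 in syngeneic grafts and fell 11.6-fold (adjusted p = 0.00363). Acmsd, which diverts the pathway from NAD synthesis, fell by 4.38 ± 0.54 (adjusted p = 0.0066), and its difference was -5.01 without tolerated replicate 2. Ddc, aromatic amino acid decarboxylase, which makes dopamine in proximal tubules, fell by 4.52 ± 0.55 (adjusted p = 0.0066), to a tolerated mean of 7.81, close to the filter threshold. Fah, the last enzyme of tyrosine breakdown, fell 12.0-fold (adjusted p = 0.00363). In each fit without 1 array, 11 genes of the list fell.

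Of 16 genes of glycine, serine, threonine and choline 15 fell and none rose, with a median of -2.57. Dmgdh, which demethylates dimethylglycine, fell 17.7-fold (adjusted p = 0.00363), Hao2, a hydroxy acid oxidase, 11.5-fold (adjusted p = 0.00363) and Glyat, which joins glycine to acyl groups, 11.0-fold (adjusted p = 0.00406). Sds, serine dehydratase, fell by 4.19 ± 0.57 (adjusted p = 0.00836), to a tolerated mean of 7.39 under the filter threshold, so that its size rests on a dim level. All 15 tested genes of sulfur amino acids and glutathione fell, with a median of -2.48, and 12 to 15 of them fell in the fits with 1 array left out. Gclc, the rate-limiting enzyme of glutathione synthesis, stood at 12.89, 12.79 and 14.03 in tolerated and 16.97, 17.58 and 17.95 in syngeneic grafts and fell 19.1-fold (adjusted p = 0.00469). The transsulfuration genes Cbs and Cth fell 11.6-fold (adjusted p = 0.00363) and 9.70-fold (adjusted p = 0.00406), and Anpep, an aminopeptidase of the brush border, fell 11.5-fold (adjusted p = 0.0038). The proximal tubule markers fell in the same grafts, and their part in these falls was not tested.

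**Figure D5:**
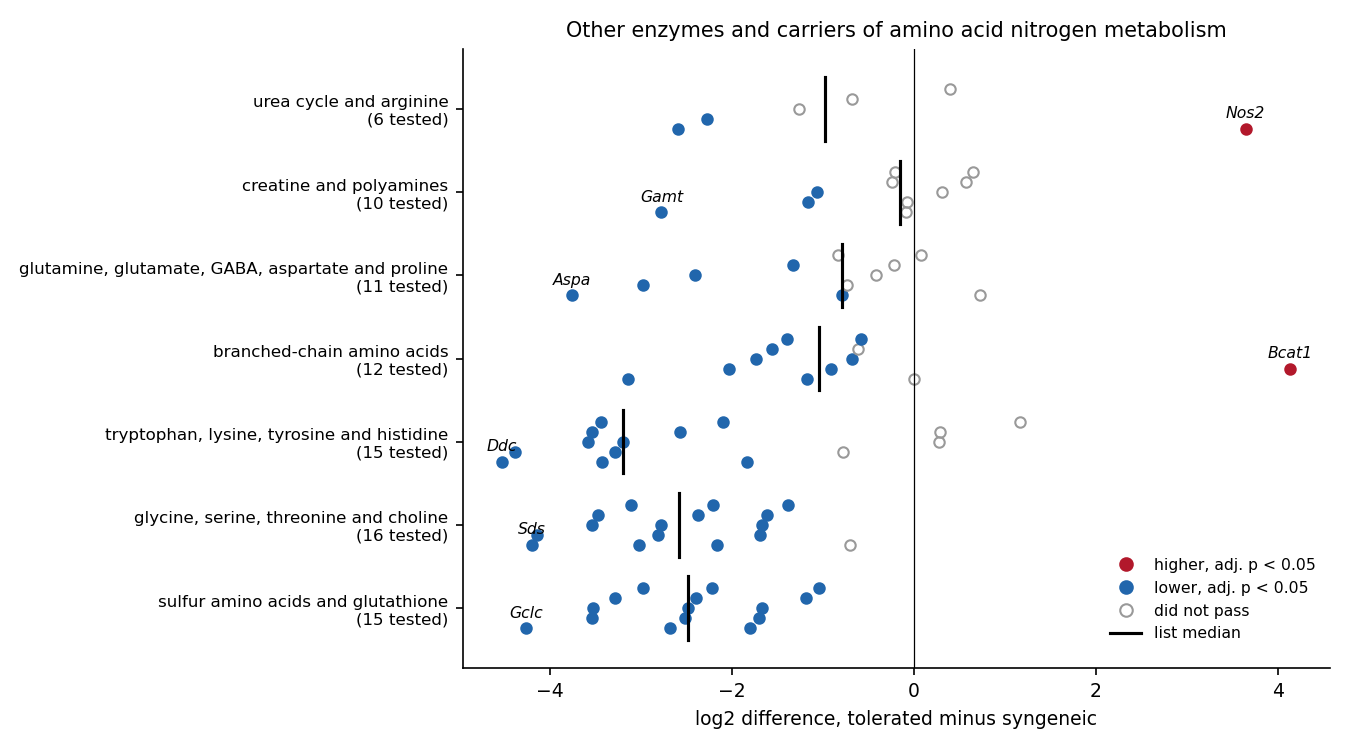
Log2 difference, tolerated minus syngeneic (x axis), of 85 other genes of amino acid nitrogen metabolism in 7 lists (y axis). Filled points passed limma's test, open points did not, and black bars are list medians. The 60 genes that fell lie to the left, Nos2 (3.65) and Bcat1 (4.14) are the genes that rose, and the medians run from -3.19 to -0.15.

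Of 4947 other named genes tested, the 5 whose levels on the 6 arrays followed the mean of the 8 enzyme genes most closely were Gtpbp4, Slc25a11, Bckdk, Vdac1 and Fhit, with Pearson correlations of 0.9988 to 0.9997. A correlation over 0.95 was reached by 623 genes. Bckdk, the kinase that restrains branched-chain ketoacid breakdown, stood at 15.71, 15.65 and 15.68 in tolerated and 16.36, 16.44 and 16.28 in syngeneic grafts. By deviations from the group means, the 5 nearest genes were Grn, Tmem37, Rnf32, mrpl11 and Hist1h4b, with correlations of 0.9954 to 0.9991. Grn had a higher level in tolerated grafts, by 0.61 on the log2 scale, so its arrays varied with the enzyme genes within groups and differed the other way between them. These likenesses rest on 6 arrays and a large number of genes compared and are a description.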

How the data were processed

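The platform was the rat survey array of Applied Biosystems, and 6 kidney transplants were hybridised from 0.5 µg of total RNA labelled with digoxigenin, per the labels' protocols. The authors deposited raw probe intensity, with medians of 421 to 991 between arrays, and a series matrix of log2 values, whose columns shared a median of 9.36 and ranked probes as the raw values did. Scanner software, background subtraction, flags and genome build were not given in the sources used here. No array pair was a copy (at most 0.00745% equal raw values), and 0 columns belonged to no sample.

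From the deposited intensity, values under 1 (0 of them) would have been raised to 1, arrays were quantile normalized on the log2 scale, and probes with a mean log2 level in the lowest 0.25 of probes (under 7.76) were left out, 6715 in all. No background correction was added. Genes were named from the platform annotation (6104 probes with 1 symbol, 70 with several, 20683 with none), updated through Entrez identifiers to RefSeq of assembly GRCr8 (6081 matched), and a gene was read from its brightest tested probe. The comparison used lmFit and eBayes of limma 3.58.1 under R 4.3.3 (2-sided, no covariate, Benjamini-Hochberg over all tested probes at 0.05). The code was first run on simulated data with fewer changed probes than were called here, and that run is not read as support. Errors are standard errors of the limma fit unless named SD. The number of arrays limits the precision.

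The members and lists were chosen with earlier results of these data known. The pathway genes named are up to 4 per list, those past the threshold with groups that did not overlap and the largest change, and Cps1, Otc, Arg1, Gls2, Oat, Gamt, Got1, Got2 and Slc38a3 whatever their value; 1 further gene of this rule is not reported here. The genes most alike are the 5 with the highest correlation by each measure. The marker genes given with values (Umod, Slc34a1, Klk1, Egf, Slc26a4, Rhbg, Alb) were chosen after their values were seen. Of 152 listed pathway genes 92 had a named probe and 85 passed the filter. Alternatives were median scaling, the deposited log2 values, no filter, a filter at 0.5 of probes, 100 added before log2, the replicate number as a block, and each array left out.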

Additional observations from a re-analysis of the deposited data

How the results depend on the processing

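The 8 enzyme genes had negative differences under every alternative run. With median scaling their median was -2.68, against -2.30, while the median of all tested probes was -0.15 in place of -0.02, and the probes past the threshold split into 1735 higher and 2886 lower, against 2490 and 2585. With the other alternatives that keep all arrays it lay between -2.35 and -2.29. Same-numbered arrays of the groups did not deviate together (correlations of -0.0023, 0.0112 and 0.0538 for numbers 1 to 3), so they were not treated as pairs. With 3 arrays per group these correlations cannot exclude a pairing. With the replicate number as a block 1886 probes were called (781 higher, 1105 lower), 7 of the 8 enzyme genes passed (not Gatm), 1 pathway gene was higher, and 3 glutamine and glutamate list genes and 4 branched-chain genes were lower. With no filter the glutamine and glutamate list had 3 lower genes. With 1 array left out the called probes ranged from 1610 to 6046 (higher 627 to 3050, lower 983 to 2996), pathway genes that rose from 0 to 3, and those that fell from 1 to 3 (creatine and polyamines), 3 to 5 (glutamine and glutamate) and 5 to 9 (branched-chain). The enzyme genes have 1 named probe each, so the choice between probes of a gene could not be varied. No signal over background was in hand, so dim levels are uncertain.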

Other observations

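Besides Otc, 6 pathway genes with a named probe did not pass the filter on dim probes. Nos1, the neuronal nitric oxide synthase, had 6.51, 6.31 and 7.15 in tolerated and 6.30, 6.75 and 8.06 in syngeneic grafts (log2). Gad1, which makes GABA, the substrate of Abat, had 7.84, 6.25 and 7.06 in tolerated and 7.34, 7.60 and 7.08 in syngeneic grafts. Tdo2, the liver enzyme that starts the kynurenine route, had 6.03, 8.90 and 6.98 in tolerated and 8.72, 8.10 and 7.72 in syngeneic grafts. Mat1a, the liver form of methionine adenosyltransferase, had 6.16, 7.21 and 5.59 in tolerated and 7.10, 7.37 and 7.93 in syngeneic grafts. The groups overlapped for each of these, as they did for Agxt and Mtr.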
